A study of Homo sapiens with 16 samples.

Results

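The histone genes described here are 73 protein-coding genes of the GENCODE annotation whose symbols begin with H1-, H2AC, H2BC, H3C or H4C, out of 19962 protein-coding genes on chromosomes 1 to 22 and X. They were chosen by symbol and not by signal, and comprise 9 H1, 17 H2A, 19 H2B, 13 H3 and 15 H4 genes. Of these, 34 lay in a cluster at chr6:25713398-26295638, 5 and 16 in further clusters of that arm, and 11 in a cluster at chr1:149772690-149897965, with 7 elsewhere. The measurement was p65 ChIP-Seq in HT29 and SW480, which are established human colon cancer cell lines. Each line had been stably transfected with ERβ, the estrogen receptor encoded by ESR2, or with an empty vector (mock), and the labels state no clone. All cells had received TNFα at 30 ng/ml for 30 min, mock cells included, and were crosslinked with DSG and formaldehyde. Each of the 4 conditions (HT29 mock, HT29 ERβ, SW480 mock, SW480 ERβ) had 3 ChIP libraries and 1 input. No library of cells without TNFα was analysed here, so every value is a level after the cytokine and not a response to it.

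Histones package DNA into nucleosomes, with H2A, H2B, H3 and H4 forming the core and H1 sitting on the linker between cores. Most genes in the clusters are replication-dependent: NPAT and cyclin E with CDK2 switch them on in S phase, and their mRNAs end in a stem-loop bound by SLBP instead of a poly(A) tail. The symbol rule also takes in genes that are known not to follow that scheme, among them the replacement linker histone H1-10 on chromosome 3. p65 (RELA) is the activating subunit of NFκB. It enters the nucleus after TNFα and binds κB sites, short sequences of loose consensus, for instance at the genes of its own IκB inhibitors.

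Values are the mean signal from 500 bp upstream to 100 bp downstream of the transcription start site (TSS, position 0), where signal is the deposited coverage per base after each library had been scaled to the same number of tags. Depth cannot be read from tracks scaled in this way, and cells were measured in bulk, so more cells with p65 at a promoter and more p65 per cell cannot be told apart. As a check of the labels, signal in coding exons of ESR2 was 2.41 to 6.89 times that in its introns in the ERβ ChIP libraries, 1.96 and 2.34 times in the ERβ inputs, and 1.08 to 1.61 times in all mock libraries. The labels list the p65 antibody on the inputs too, and the ERβ inputs are described as part of another series of libraries. Replicate 1 of both HT29 conditions stood apart at strongly bound genes, with a promoter signal at NFKBIA, the gene of IκBα, of 11.9 in HT29 mock replicate 1 against 5.93 and 7.13 in the others. The study's methods call the replicates biological, while the labels only number them and name no separate cultures, so p-values measure the spread between these libraries.

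A first question was which histone promoters could be measured at all, since gene copies in these clusters can be too alike for reads to be placed. Of the 73 windows, 7 had a signal of 0 in all 6 bins of 100 bp in all 16 tracks, inputs included. None of their 75-base words (the read length) occurs only once in the genome, and each window has an exact copy elsewhere. Those on chromosome 1 lie in mirrored pairs in GRCh38, H4C14 with H4C15, H3C14 with H3C15, and H2AC18 with H2AC19, between chr1:149832157-149861659. The other is H2BC12L on chromosome 21, whose window is repeated in full at chr21:5973291-5973890. A value of 0 at these genes therefore says that unique alignments cannot be assigned there and nothing about p65. These 7 were among the 1112 of all promoters (5.57%) in which more than 2 bins had a mean input under 0.05. All of these were left out of every test except the alternatives without this mapping filter.

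The other 66 promoters had no bin with an input near 0. In 54 of them every 75-base word was unique. The lowest share was 37.5% at H3C13, an H3 gene on chromosome 1 with 55.7% of its words repeated at chr1:121118523-121119074, and its mean input of 0.190 was the lowest of the measurable members. H2BC18, an H2B gene beside it, had 74.1% unique words and a mean input of 0.328. At the linked H2B genes H2BC13 and H2BC14, 71.5% and 71.7% of words were unique, since 28.5% and 28.3% are shared between them. Over the whole chromosome 1 cluster the inputs averaged 0.132 to 0.154, against 0.323 to 0.380 over the first chromosome 6 cluster. Signal at these members is understated by the missing words, in ChIP and input libraries alike.

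**Figure D1:**
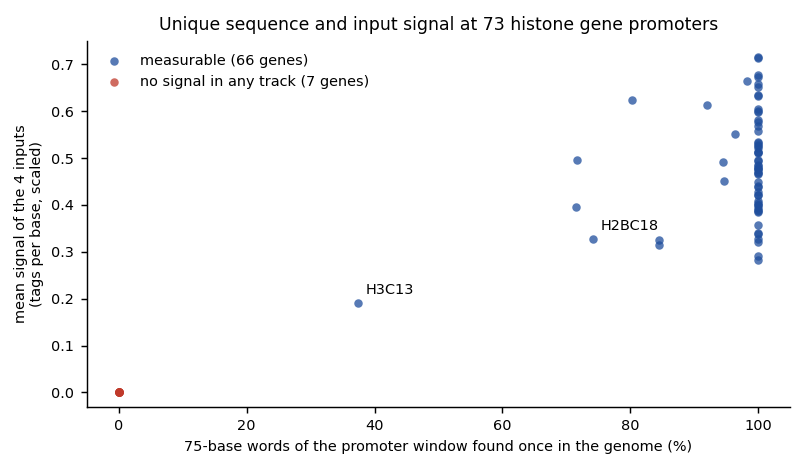
Share of 75-base words in the promoter window that occur once in the genome (percent, horizontal) against the mean signal of the 4 inputs (scaled tags per base, vertical) for the 73 histone genes, 1 point a gene. The 7 genes with no unique word lie at an input of 0, H3C13 lies at 37.5% and 0.190, and most others lie at 100% with inputs between 0.283 and 0.715.

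Neighbouring histone genes also share windows. The TSSs of 12 divergent H2A and H2B pairs lie 194 to 251 bp apart, so that 393 to 450 bp of their windows are the same bases. H2BC9 and H3C7 share 22 bp. These 13 pairs hold 26 members, and the values of the genes in a pair are not independent. The tracks themselves are coarse at this height, since a stretch of constant signal at a histone promoter had a median length of 392 bp, from 112.5 bp at H1-10 to 1173 bp at H3C13.

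The promoters carried the elements known for their class. The octamer ATTTGCAT, bound by POU2F1, had a match on either strand in 78.9% of H2B and 70.6% of H2A windows and in 2.88% of all promoters. The H1 box AAACACA was found in 77.8% of H1 windows against 9.81% of all promoters, CCAAT in 89.0% of histone windows against 52.8%, and TATAAA in 75.3% against 18.7%. For CCAAT the H4 windows stood apart, with a match in 7 of 15 (46.7%), while every window of the other classes held one. An AP-1 match (TGANTCA) was less common in histone windows, at 2.74% against 10.8%. H2BC11, an H2B gene, and H1-4, a linker histone gene, are shown as ordinary members, with the octamer or H1 box and the TATAAA in capitals. All sequences here are GRCh38, 5′ to 3′ on the strand of the gene, at chr6:27132796-27132915 (minus strand) and chr6:26156199-26156318 (plus strand).
H2BC11: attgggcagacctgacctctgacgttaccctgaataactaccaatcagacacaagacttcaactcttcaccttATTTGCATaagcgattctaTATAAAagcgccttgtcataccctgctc
H1-4: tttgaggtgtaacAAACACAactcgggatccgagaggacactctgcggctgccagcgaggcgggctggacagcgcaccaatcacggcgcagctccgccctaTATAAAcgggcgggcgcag

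A match to the κB consensus lay in 10 of the 73 histone windows (13.7%), against 19.2% of all promoters. By class, 4 of 15 H4 windows (26.7%), 1 of 9 H1, 2 of 17 H2A, 2 of 13 H3 and 1 of 19 H2B windows held one. The 4 H4 genes with a match in the 120 bases before the TSS are printed in full, because 3 of them carried p65 signal above input and the fourth did not, with the κB match in capitals. Their positions are chr6:27139162-27139281 (plus), chr6:27823972-27824091 (plus), chr6:27831561-27831680 (minus) and chr6:27873535-27873654 (minus), and none of these matches overlaps another annotated gene.
H4C9: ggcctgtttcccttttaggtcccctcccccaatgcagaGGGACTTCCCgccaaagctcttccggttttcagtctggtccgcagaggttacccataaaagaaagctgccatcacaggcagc
H4C11: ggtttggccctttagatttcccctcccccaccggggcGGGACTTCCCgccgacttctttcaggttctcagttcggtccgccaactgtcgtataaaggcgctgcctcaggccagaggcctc
H4C12: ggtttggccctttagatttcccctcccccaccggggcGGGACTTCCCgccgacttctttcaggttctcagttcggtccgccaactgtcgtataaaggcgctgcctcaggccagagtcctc
H4C13: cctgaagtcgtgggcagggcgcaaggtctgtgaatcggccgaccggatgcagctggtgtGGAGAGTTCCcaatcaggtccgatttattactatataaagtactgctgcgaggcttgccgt

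H4C9, H4C11 and H4C12 carry the same κB word, which starts at position -82 or -83. H4C11 and H4C12, neighbouring H4 genes on opposite strands, are equal at 119 of these 120 positions (99.2%), and 82 of their 75-base words, lying between positions -131 and 99, are the same in both, so that 84.4% of the words of each are unique. H4C9 equals H4C11 at 39.2% of the 120 positions. In H4C13 the match starts at position -61 and differs in sequence.

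The remaining members printed are those with p65 signal farther from the TSS. The κB matches lie at chr1:149888284-149888293 for H2AC21, within an intron of the neighbouring BOLA1, and at chr6:26157722-26157731 and chr6:26157399-26157408 for H2BC5, whose second match lies upstream of the window. Both H2BC5 matches lie in exons of a gene model without a symbol on the same strand, and the first also in an exon of a long noncoding RNA of the other strand. The match of H1-10, at chr3:129316793-129316802, starts at position -516 and so falls just outside the window, within H1-10-AS1, a long noncoding RNA of the other strand, and in none of its exons.
H2AC21: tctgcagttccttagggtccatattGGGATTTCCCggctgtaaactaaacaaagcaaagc
H2BC5 (within the window): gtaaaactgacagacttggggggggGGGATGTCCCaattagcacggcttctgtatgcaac
H2BC5 (upstream of the window): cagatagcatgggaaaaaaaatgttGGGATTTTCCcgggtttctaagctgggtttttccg
H1-10: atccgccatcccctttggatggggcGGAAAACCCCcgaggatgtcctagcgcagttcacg

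The next question was whether p65 ChIP signal at histone promoters exceeded the input, and at most of them no difference passed the test. Of the 66 promoters, 5 were higher in ChIP than in input and 0 were lower, against 6.59% higher and 0.0902% lower among all 18850 promoters tested (limma on log2(signal + 0.25), adjusted p under 0.05), so the share is close to the background. The median log2 difference was 0.04 in histone genes and 0.05 in all promoters, and 37 of 66 differences were above 0. The 5 were the linker histone gene H1-10, the H2A gene H2AC21, and the H4 genes H4C9, H4C11 and H4C12. Among the members on chromosomes 6 and 1, 4 of 62 were higher.

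Members with and without a κB match were counted apart. Of the 10 members with a match in the window 4 were higher in ChIP (40%, median log2 difference 0.30), and of the 56 without a match 1 was (1.79%, median 0.00). Among all promoters the shares were 19.2% with a match (median 0.14) and 3.57% without (median 0.04). Of the 4 members with a match that passed, H4C11 and H4C12 have near-identical promoters. H2AC21, H4C9 and H4C11 did not pass in the mock libraries alone. The word shared by H4C9, H4C11 and H4C12 occurs in 75 promoters (0.376%), of which 73 could be measured and 38 were higher in ChIP (52.1%, median 0.60). By class, 3 of 13 H4 promoters were higher (median log2 difference 0.27), 1 of 9 H1 (0.12), 1 of 15 H2A (-0.03), 0 of 18 H2B (0.00) and 0 of 11 H3 (0.04). The other 6 members with a match did not pass, at 0.48 for H2BC5 (adjusted p = 0.13), -0.12 for H4C13, 0.07 for H2AC4, 0.12 for H1-8, 0.04 for H3C1 and 0.00 for H3C2.

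**Figure D2:**
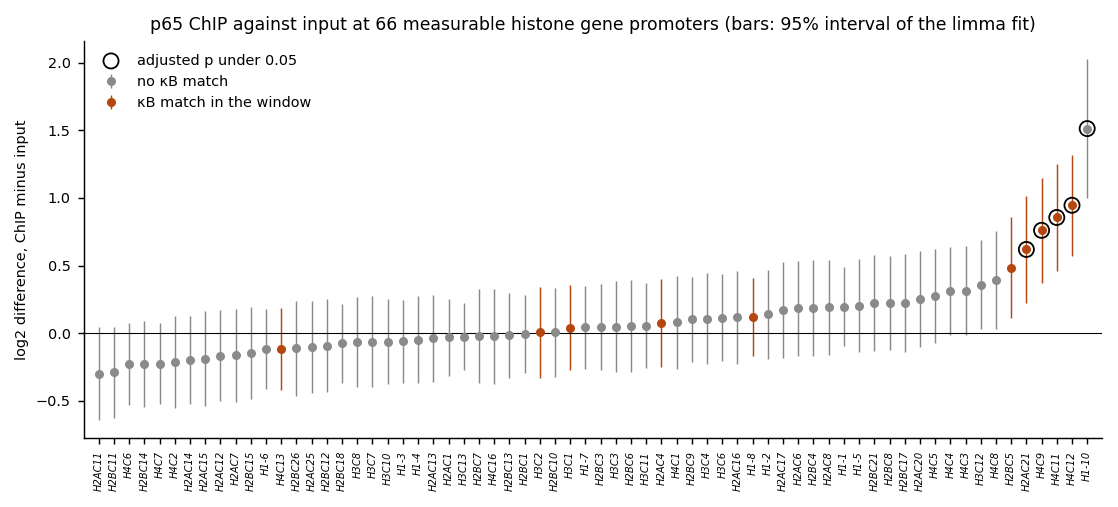
Log2 difference between ChIP and input (vertical, with 95% interval of the limma fit over 12 ChIP libraries and 4 inputs) for the 66 measurable histone promoters, ordered by value, with κB matches in orange and adjusted p under 0.05 circled. The 5 circled genes lie at 0.62 to 1.51, and 4 of them carry a κB match in the window.

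H1-10, also called H1X, a replacement linker histone on chromosome 3 (129314771 to 129316286, minus strand), had the highest p65 signal of all histone promoters. In HT29 mock libraries the signal was 5.36, 2.91 and 3.12, in HT29 ERβ 5.24, 2.10 and 2.32, in SW480 mock 1.00, 1.65 and 1.19, and in SW480 ERβ 1.60, 3.12 and 2.70. The inputs were 0.653, 1.11, 0.705 and 0.395 in the same order, so that all 12 ChIP libraries but 1 lay above every input. The log2 difference was 1.51 (SE 0.26, limma, adjusted p = 3.1e-06) and kept its call in all 26 alternatives. The signal rose to a summit at the upstream edge of the window, from position -600 to -401, over the κB match printed above. Over these 200 bases the 3 replicates had 9.73, 3.66 and 4.90 in HT29 mock and 6.35, 4.95 and 4.32 in HT29 ERβ. They had 2.27, 3.11 and 2.85 in SW480 mock and 2.89, 7.16 and 5.33 in SW480 ERβ, with inputs from 0.410 to 0.919. The SW480 mock libraries were the lowest group, at 2.99 times their input of 0.919, while the other groups stood at 7.71 to 12.5 times. The value of 12.5 belongs to SW480 ERβ, over the lowest input of 0.410.

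H4C12 and H4C11 encode the same H4 protein from the near-identical promoters shown above. H4C12 (chromosome 6, 27831174 to 27831560, minus strand) had signals of 1.49, 0.792 and 1.23 in HT29 mock and of 1.84, 1.27 and 0.529 in HT29 ERβ. It had 0.470, 0.416 and 0.721 in SW480 mock and 0.547, 0.941 and 0.664 in SW480 ERβ, with inputs of 0.400, 0.478, 0.230 and 0.195. Each group lay above its own input, with a log2 difference of 0.95 (SE 0.19, limma, adjusted p = 7.9e-05) that kept its call in all 26 alternatives. H4C11 (27824092 to 27824480, plus strand) varied more among replicates, with 1.71, 0.795 and 0.284 in HT29 mock, 1.81, 0.611 and 0.437 in HT29 ERβ, 0.495, 0.483 and 0.755 in SW480 mock, and 0.767, 1.35 and 0.661 in SW480 ERβ. Replicate 1 was the highest of both HT29 groups, and HT29 mock replicate 3 was near its input of 0.247. The log2 difference was 0.86 (SE 0.20, adjusted p = 0.0011). Without the SW480 ERβ input it was 0.71 (adjusted p = 0.088). With 1 input per condition, this leaves the estimate to the other conditions. In the mock libraries alone the difference was 0.62 (adjusted p = 0.41). In both genes the highest 200 bases ended at the TSS in HT29 and covered the κB match.

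H4C9 (chromosome 6, 27139282 to 27139678, plus strand) owed its difference to SW480 ERβ cells. Its signal was 1.30, 2.89 and 1.44 there, with an input of 0.240. The other 9 ChIP libraries ranged from 0.330 to 0.799, beside inputs of 0.420, 0.357 and 0.540, so that the SW480 ERβ libraries overlapped no others. Over all libraries the log2 difference was 0.76 (SE 0.20, limma, adjusted p = 0.0040). It fell to 0.33 (adjusted p = 0.60) without the SW480 ERβ input, which leaves only the other conditions in the estimate. In mock libraries it was 0.32 (adjusted p = 0.84). In SW480 ERβ the 200 bases around the TSS, from position -150 to 49, held 2.19, 5.75 and 2.76. This is 14.9 times the input of 0.24 on average. In SW480 mock the highest window, from position -100 to 99, held a mean of 1.25, which is 1.87 times its input of 0.67. The gap between these ratios thus comes from the input, with 1 library each, as well as from the ChIP signal.

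H2AC21, an H2A gene at the end of the chromosome 1 cluster (149887469 to 149887965), had the second highest mean over the 12 ChIP libraries (0.987, against 0.938 at H4C9), though not in every condition, with group means of 1.18 ± 0.504, 1.07 ± 0.548, 0.758 ± 0.0949 and 0.941 ± 0.198 (SD, n = 3) and inputs of 0.701, 0.483, 0.558 and 0.393. HT29 replicate 1 was at 1.66 in both conditions. Its log2 difference of 0.62 (SE 0.20, adjusted p = 0.037) passed the threshold in 13 of 26 alternatives and was 0.49 (adjusted p = 0.15) without the HT29 replicate 1 libraries. It also missed the threshold without either of these alone, without SW480 ERβ replicate 1 or 2, and without the HT29 mock, HT29 ERβ or SW480 ERβ input, at adjusted p-values of 0.056 to 0.23. Leaving out an input takes its whole condition out of this estimate. In HT29 the highest 200 bases, from position -450 to -251, held the κB match, at 2.41 and 3.42 times the inputs.

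H2BC5, an H2B gene that also makes a longer transcript (chromosome 6, 26158122 to 26171349), had signal in the window that did not pass the test, at a log2 difference of 0.48 (SE 0.19, limma, adjusted p = 0.13). H2BC5 passed without the SW480 mock input (0.70, adjusted p = 0.024). That takes SW480 mock, the group whose mean was below its input, out of the estimate. Its group means were 0.912 ± 0.0967 in HT29 mock, 1.14 ± 0.210 in HT29 ERβ, 0.558 ± 0.155 in SW480 mock and 0.822 ± 0.179 in SW480 ERβ (SD, n = 3), with inputs of 0.621, 0.397, 0.645 and 0.450. Its summit lay farther out, from position -800 to -601, over the upstream κB match. There the replicates held 5.10, 1.91 and 1.48 in HT29 mock, 2.72, 1.82 and 2.10 in HT29 ERβ, 1.67, 1.13 and 2.22 in SW480 mock, and 3.24, 3.99 and 2.42 in SW480 ERβ, at 3.80 to 9.22 times the inputs. With a window from 1000 bases upstream the log2 difference was 1.06 (adjusted p = 4.8e-06). H1-4, a linker histone gene, ends 284 bases from that match.

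**Figure D3:**
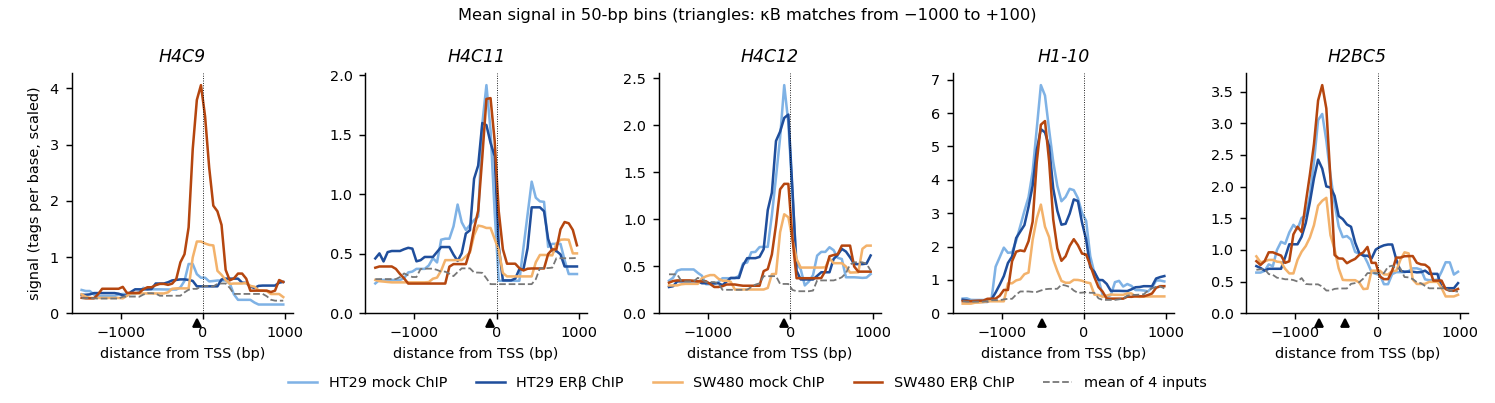
Mean signal of the 3 ChIP libraries of each condition and of the 4 inputs (scaled tags per base, vertical, each panel with its own scale) in 50-bp bins around the TSS at 5 histone genes, with triangles at κB matches. H4C9 peaks at the TSS in SW480 ERβ cells, H4C11 and H4C12 just upstream of the TSS, and H1-10 and H2BC5 farther upstream over a κB match.

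The lowest mean ChIP signals were 0.181 at H3C13 beside an input of 0.190, 0.292 at the testis linker histone gene H1-6 beside 0.322, and 0.304 at H2BC18 beside 0.328. At H3C13 and H2BC18 repeated words lower the ChIP signal and the input, so their rank among genes cannot be read as p65. The testis pair H2AC1 and H2BC1, which share 414 bp of their windows, stood at 0.315 and 0.332 with log2 differences from input of -0.03 and -0.01, and H1-6 at -0.12. Of the other members outside the main clusters, the germline linker histone genes H1-7 and H1-8 differed from input by 0.04 and 0.12, the chromosome 1 pair H2AC25 and H2BC26 by -0.10 and -0.11, and H4C16 on chromosome 12 by -0.02. None of these passed the test, with limma adjusted p-values of 0.87 to 1.00. For comparison, 5 of the 6 IκB genes (all but NFKBID) were 2.59 to 3.59 higher than input on the same scale, and 7 of 82 ribosomal protein gene promoters, with a median of 0.14, passed the threshold, near the 6.59% of all promoters.

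**Figure D4:**
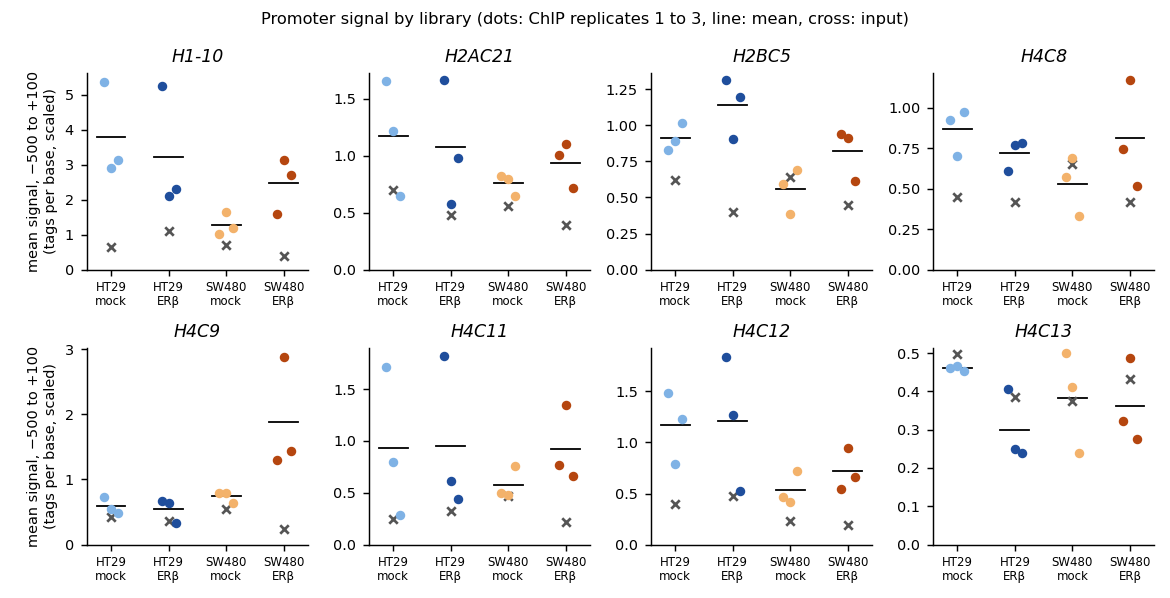
Promoter signal (scaled tags per base, vertical, each panel with its own scale from 0) of 8 histone genes in each library, with points for the 3 ChIP replicates, a line for their mean and a cross for the input of each condition. H1-10 is lowest in SW480 mock cells (1.00 to 1.65), H4C9 is high in SW480 ERβ cells alone (1.30 to 2.89), and H4C13, which also has a κB match, stays between 0.238 and 0.500.

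A stricter reading asked which promoters were bound, taken as a 200-bp stretch within the window at 4 times or more over both the matching input and the surrounding 10 kb with a signal of at least 2, in 2 of 3 replicates. Among histone genes these were H1-10 in HT29 mock (2.66% of all promoters were bound there), H1-10 in HT29 ERβ (1.67%), none in SW480 mock (1.01%), and H1-10 and H4C9 in SW480 ERβ (5.49%). H1-10 met the limits in all 3 replicates of each of those 3 conditions and in 0 of 3 in SW480 mock. H4C9 met them in all 3 SW480 ERβ libraries and in no other. H4C11 met them in 3 of 12 libraries, and H4C12 in 2, never more than 1 a group. With 6 times the input in place of 4, H1-10 was bound in neither HT29 condition, while H1-10 and H4C9 were still bound in SW480 ERβ. With a signal minimum of 1, H4C11 and H4C12 were bound in HT29 mock and H4C11 in SW480 ERβ. With a window from 1000 bases upstream, H2BC5 was bound in SW480 ERβ. In each condition 5 of the 6 IκB promoters were bound. The fold limit rests on 1 input per condition, and these inputs differed. At the H1-10 summit, from position -600 to -401, the input was 0.919 in SW480 mock and 0.410 in SW480 ERβ. Over all promoters the median input was 0.633 in SW480 mock and 0.446 in SW480 ERβ. The part of the inputs in the bound calls was not tested.

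In HT29 cells, the comparison of ERβ with mock asked whether the receptor changed p65 at these promoters, and no histone promoter passed the test. Of all 18850 promoters 0% passed by limma, with 635 at an unadjusted p under 0.05, and 0 of the 66 histone promoters reached even that. The lowest p-values belonged to H4C13, with 0.462, 0.467 and 0.454 in mock and 0.407, 0.25 and 0.239 in ERβ libraries (log2 difference -0.39, 95% interval -0.82 to 0.04), to H4C7 (-0.35, interval -0.78 to 0.08), an H4 gene, and to H2AC11 (0.38, interval -0.08 to 0.84), an H2A gene. Their adjusted p was 1. The mean ChIP levels of H4C13, H4C7 and H2AC11 were below their inputs in both conditions. The median over histone genes was 0.02, against -0.04 over all promoters. At H1-10 the difference was -0.28 (interval -0.99 to 0.42), and at H4C12 -0.04 (interval -0.57 to 0.49).

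In SW480 cells, 1 of 66 histone promoters was higher with ERβ, against 0.52% of all promoters, and 0 were lower, against 0.0212%. That promoter was H4C9, at 0.799, 0.791 and 0.645 in mock and 1.30, 2.89 and 1.44 in ERβ libraries, which do not overlap. The log2 difference was 1.02 (SE 0.26, limma, adjusted p = 0.030), while the input of the ERβ cells (0.240) was lower than that of the mock cells (0.540). The call was lost in 8 of 22 alternatives, where the adjusted p ranged up to 0.50. Without SW480 ERβ replicate 2, the highest library, the difference was 0.71 (adjusted p = 0.50), and without SW480 ERβ replicate 3 it was 1.15 (adjusted p = 0.082). Leaving out SW480 mock replicate 1, 2 or 3 gave 1.06, 1.06 and 0.95, with adjusted p-values of 0.11, 0.081 and 0.18.

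H1-10 was also higher with ERβ on average in SW480 cells, at 2.47 ± 0.786 against 1.28 ± 0.332 (SD, n = 3), but the ranges met at 1.60 and 1.65 and the log2 difference of 0.81 (SE 0.35, adjusted p = 0.35) did not pass. It passed in 3 of 22 alternatives, at the same difference without both HT29 replicate 1 libraries (adjusted p = 0.040) and with the replicate block (adjusted p = 0.0036), and at 1.37 with the inputs subtracted (adjusted p = 0.0027). H4C11 (0.48), H4C8 (0.43), H2BC5 (0.41) and H4C12 (0.30) gave positive differences, with adjusted p-values of 0.52 to 0.72. Members with a κB match had a median of 0.25 and those without one of -0.05, and the median of all histone genes was -0.01 against 0.10 over all promoters.

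The ERβ effect in SW480 less that in HT29 was tested as an interaction, which 0 of 66 histone promoters passed by limma, against 0.149% of all promoters, with 4 at an unadjusted p under 0.05. H4C9 had the lowest p, with a difference between the effects of 1.11 (SE 0.36, adjusted p = 0.27), from an effect of -0.09 in HT29 and 1.02 in SW480. It was followed by H1-10 (1.09, adjusted p = 0.50) and by H2AC16, an H2A gene (0.72, adjusted p = 0.51). With the replicate number as a block, H4C9 and H1-10 passed at the same differences (adjusted p = 0.018 and 0.0096), but the numbers were not taken as pairs. Whether the ERβ effect differed between the lines thus depended on the fit.

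Between the lines without ERβ, p65 signal at H1-10 and H4C12 was lower in SW480 than in HT29. These were 2 of 66 histone promoters, against 3.04% of all promoters that were lower in SW480 mock, and 0 were higher, against 16.8%. H1-10 differed by -1.37 on the log2 scale (SE 0.35, limma, adjusted p = 0.0029), with all SW480 values (1.00 to 1.65) under all HT29 values (2.91 to 5.36) and similar inputs of 0.705 and 0.653, and kept its call in all 22 alternatives. H4C12 differed by -0.84 (SE 0.27, adjusted p = 0.016), with SW480 values of 0.416 to 0.721 under HT29 values of 0.792 to 1.49. Its input was lower in SW480 as well, at 0.230 against 0.400, and with the inputs subtracted the difference was -0.41 (adjusted p = 0.41). It also missed the threshold without HT29 mock replicate 1 (-0.68, adjusted p = 0.083) or replicate 3 (-0.80, adjusted p = 0.061), and without SW480 mock replicate 1 (-0.79, adjusted p = 0.070) or replicate 2 (-0.73, adjusted p = 0.090). H2BC5 (-0.54, adjusted p = 0.11) and H2AC21 (-0.44, adjusted p = 0.25) gave differences of the same sign.

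Between the lines with ERβ, H4C9 was higher in SW480, and 2 of 66 histone promoters in all, against 31.1% of all promoters. One promoter was lower, against 1.81%. H4C9 stood at 1.30 to 2.89 in SW480 ERβ and 0.330 to 0.677 in HT29 ERβ cells, a log2 difference of 1.37 (SE 0.26, limma, adjusted p = 2.5e-05) that kept its call in all 22 alternatives. H4C16 was higher, at 0.851, 0.772 and 0.721 against 0.443, 0.430 and 0.336 (0.66, SE 0.24, adjusted p = 0.023). The SW480 ERβ values lay little above their input of 0.686, and the HT29 ERβ values all lay below theirs of 0.643. Once libraries were centred on their own medians the difference at H4C16 was 0.27 (adjusted p = 0.43). Without HT29 ERβ replicate 3, or SW480 ERβ replicate 1 or 2, it was 0.59 to 0.67 with adjusted p-values of 0.055 to 0.094. H3C7, an H3 gene, was lower, at 0.624, 0.150 and 0.220 against 0.686, 0.673 and 0.483 (-0.65, SE 0.24, adjusted p = 0.029), but the ranges overlapped. Its input was lower in SW480 as well, at 0.343 against 0.461. The call was lost in 9 of 22 alternatives, among them the inputs subtracted and both HT29 replicate 1 libraries left out. Leaving out SW480 ERβ replicate 2, the lowest library, gave -0.42 (adjusted p = 0.24). Leaving out SW480 ERβ replicate 3 or HT29 ERβ replicate 1 or 2 gave -0.54, -0.59 and -0.60 (adjusted p = 0.13, 0.070 and 0.093). H1-10, which differed between the lines in mock cells, did so by -0.29 here (adjusted p = 0.56).

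**Figure D5:**
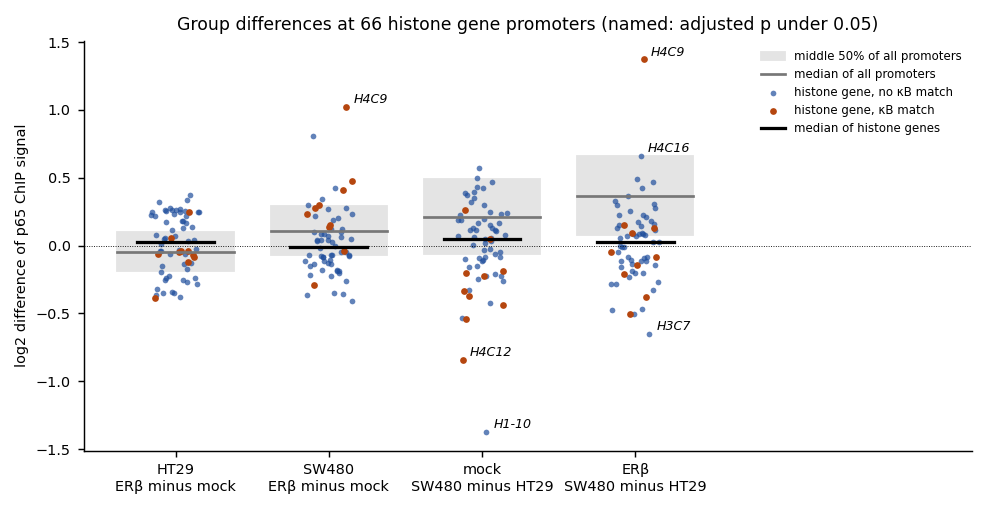
Log2 difference in p65 ChIP signal of the 66 histone promoters in the 4 comparisons of conditions, with κB matches in orange, a black line at their median, and a grey line and box for the median and middle 50% of all 18850 promoters. Histone medians lie at 0.02, -0.01, 0.05 and 0.03, and those of all promoters at -0.04, 0.10, 0.21 and 0.36.

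In both comparisons of lines the median of the histone promoters lay below that of all promoters. Over all promoters the median was 0.21 higher in SW480 in mock cells and 0.36 higher in ERβ cells, and over histone genes 0.05 and 0.03. Base composition moved with this. Histone windows had a median GC content of 47.6% and all promoters 60%, and 50 of the 66 lay in the lowest of 5 classes of GC content of about equal size (23.2% to 50.3%). In that class the median differences were 0.01 and 0.04 over all 3818 promoters and -0.04 and 0.01 over the 50 histone genes. The next class (50.5% to 57.3%) held 14 histone genes, among them pairs that share windows. Their medians were 0.18 in mock and 0.07 in ERβ cells, against 0.19 and 0.31 over all 3734 promoters. GC content was not matched within that class. In the 2 classes of highest GC the medians over all promoters were 0.32 and 0.29 in mock cells and 0.53 and 0.51 in ERβ cells. The inputs differed too, with a median of 0.41 more in SW480 mock than in HT29 mock over all promoters and 0.08 over histone genes, but -0.10 and -0.14 between the ERβ inputs. The part of GC content and of the inputs in the difference between lines was not tested.

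Centring the libraries on their medians, which took 0.25 and 0.39 off the line differences, accordingly gave 0 histone promoters higher and 7 lower in SW480 mock (1189 and 1600 of all promoters), and 1 higher and 11 lower in SW480 ERβ (1398 and 1613 of all). The histone medians were then -0.20 and -0.36, against -0.04 and -0.02 over all promoters. Centring moves every promoter by the same amount in a comparison, so the gap between these medians could not change. The histone medians changed sign. H4C9 was the one higher. The directions at H1-10, H4C12, H4C9 and H3C7 were the same under both scalings.

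Other genes connected with histones were read in the same fits, in 4 groups: regulators and processing factors, chaperones, the cyclin E kinase and replacement histones. Against input 1 was called, beside 6.59% of all promoters. It was CHAF1A, a subunit of the chromatin assembly factor that deposits new H3 and H4, at 1.01 (SE 0.20, limma, adjusted p = 8.1e-05). The medians by group were -0.01 over 9 regulators and processing factors, 0.00 over 5 chaperones, -0.15 over 3 genes of the cyclin E kinase and 0.07 over 8 replacement histones. No list gene passed in either comparison of ERβ with mock or in the interaction. Between the lines in mock cells, 6 were higher in SW480, beside 16.8% of all promoters: NPAT, the coactivator of histone genes (0.99), ERI1, a nuclease that trims histone mRNA ends (1.13), CDK2 (0.96), the chaperone ASF1B (0.87), and the replacement histones H3-3B (0.86) and H2AX (0.68). H2AZ1, an H2A variant gene, was lower (-0.75), beside 3.04% of all. The inputs differed in the same direction at all of these but H2AX. From HT29 mock to SW480 mock they went from 1.01 to 1.82 at NPAT, 0.399 to 0.728 at ERI1, 0.477 to 1.36 at CDK2, 0.313 to 0.613 at ASF1B, 0.701 to 1.36 at H3-3B and 0.496 to 0.330 at H2AZ1, and from 1.04 to 0.804 at H2AX. The part of the inputs in these differences was not tested. In ERβ cells HINFP, which activates H4 genes (1.05), ASF1B (0.96), ERI1 (0.94), NPAT (0.83), H3-3B (0.77) and CDK2 (0.72) were higher in SW480, beside the 31.1% of all promoters that were. There the inputs were higher in SW480 at ERI1, H3-3B and CDK2 and lower at HINFP, ASF1B and NPAT. No list gene but CHAF1A passed the test of ChIP against input, and POU2F1, which binds the octamer, gave 0.36 (adjusted p = 0.33).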

How the data were processed

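p65 ChIP-Seq tracks of 12 ChIP libraries and 4 inputs were used. Per the methods and the submitters' processing notes, the authors aligned reads to GRCh38 (hg38) with STAR, kept unique alignments and made tag directories with HOMER. The deposited signal is coverage per base, which the authors had brought to a common tag total and a fragment length of 100 bp, and values under 0.05 were left out of it. The tracks hold no read counts, so the depth of each library cannot be read from them. No interval for counting error was made, and the edgeR test of the study could not be run. The study reports numbers of mapped reads per sample, which differ between samples and were not used here.

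Genes and TSSs came from GENCODE release 44, with 1 TSS a gene, counted as position 0. Mean signal from 500 bp upstream to 100 bp downstream was taken for 19962 genes. Promoters with more than 2 of 6 bins at a mean input under 0.05 were dropped. limma 3.58.1 in R 4.3.3, with a mean-variance trend, was fitted to log2(signal + 0.25) over all 18850 others, with Benjamini-Hochberg adjustment. ChIP against input used all 16 libraries with condition as covariate, and comparisons of conditions used the 12 ChIP libraries with group alone. Fold changes on this scale understate the change of low promoters. Data were simulated with the residual spread of all 12 ChIP libraries and with changes placed in HT29 ERβ. On the log2 scale, 57% of changes of 1 and 100% of changes of 2 were recovered, with 8 false calls, over 18850 promoters. The changed promoters were drawn from all of them and errors were drawn independently. Recovery at strongly bound promoters, where replicates spread more, was therefore not measured.

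Motifs were matched exactly on both strands. Unique words were counted over the genome. Named members were the 5 highest and 3 lowest by ChIP signal, those past the threshold in a comparison (otherwise the 3 of lowest p), those outside the main clusters, testis genes, unmeasurable genes, bound genes and list genes past the threshold. H2AC4, H3C1, H3C2, H4C8, H4C11 in comparisons of conditions, and H2BC11, H1-4, H2BC13, H2BC14 and H2BC9 were named after their values were seen. A gene that the symbol rule also matches is not reported here. The members, lists and rules were chosen with earlier results of these data known. Alternatives varied the pseudocount (0.1, 1), filter, window, TSS, scaling, input subtraction, replicate block and libraries. Tools were Python 3.11.15, numpy 2.4.6, pandas 2.3.3, numba 0.67.0, pysam 0.24.0, samtools 1.23.1 and matplotlib 3.10.9.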

Additional observations from a re-analysis of the deposited data

How the results depend on the processing

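Counts of histone promoters past the threshold depended on the settings as follows. For ChIP against input, the count ranged from 2 to 7 over the 26 alternatives. From 5 it became 2 with no mapping filter (789 higher and 8 lower of all 19962 promoters) and 2 in mock libraries only. Leaving out single libraries gave 2 to 6, with 2 when the SW480 ERβ input was left out. With 1 input per condition, leaving out an input takes its whole condition out of this estimate. For HT29 ERβ against mock, 0 became 13 once the matching input was subtracted, 8 higher and 5 lower. Beside these, 483 were higher and 3419 lower of all 18850 promoters. For SW480 ERβ against mock, 1 became 0 with a pseudocount of 0.1, with no mapping filter or with the TSS at the 5′ end of the gene record. The count became 2 without both HT29 replicate 1 libraries (506 higher and 9 lower of all promoters) and 14 with the input subtracted (7691 and 326 of all). Single libraries left out gave 0 to 1. For SW480 mock against HT29 mock, 2 became 1 in a window from 250 bp upstream to 50 bp downstream. The count became 7 with libraries centred on their median (1189 higher and 1600 lower of all promoters) and 7 with the input subtracted (497 and 2834 of all). Single libraries left out gave 1 to 2. For SW480 ERβ against HT29 ERβ, 3 became 12 with centring (1398 higher and 1613 lower of all promoters) and 16 with the input subtracted (8153 and 330 of all). Single libraries left out gave 1 to 3. The interaction went from 0 to 19 with the input subtracted, beside 8417 higher and 343 lower of all promoters. Counts with the input subtracted are raised by construction, since the error of the 1 input per condition is not in the fit. Bound promoters went from 2 to 4 with a signal minimum of 1. No call at a named gene changed direction, but with centring the median over histone genes changed sign in both comparisons of lines (to -0.20 and -0.36) and in ChIP against input (from 0.04 to -0.03), and with the input subtracted in HT29 ERβ against mock (from 0.02 to -0.05), SW480 ERβ against mock (from -0.01 to 0.23), SW480 mock against HT29 mock (from 0.05 to -0.16) and the interaction (from -0.01 to 0.14). The sign changes with centring follow from the constant taken off each comparison. With the input subtracted, each promoter moves by construction by the log2 difference between the inputs of the conditions compared. Why the inputs differ was not tested.

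Replicate numbers recur in every condition. Deviations of same-numbered mock and ERβ libraries correlated at 0.344, 0.104 and 0.113 in HT29 and at 0.139, 0.0515 and 0.0601 in SW480 over promoters, which are not independent. Differently numbered libraries correlated at up to 0.143 in HT29 and at up to 0.0302 in SW480, the latter below each same-numbered pair there. Every same-numbered pair was above 0.1 in HT29 but not in SW480, so the numbers were not taken as pairs. These values do not show that pairing is absent. With the replicate block, histone calls in SW480 ERβ against mock rose from 1 to 2, beside 882 higher and 19 lower of all promoters. In SW480 mock against HT29 mock they rose from 2 to 5, with 1 higher and 4 lower in SW480 (4068 and 945 of all). In the interaction they rose from 0 to 2 (H4C9 and H1-10), beside 591 and 14 of all. The other counts of histone calls stayed the same. The coarse steps of the tracks limit what can be resolved at low promoters.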
